A study of Mus musculus with 8 samples.

Results

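Transcripts of the GIGYF and eIF4E translational repression pathway were followed in the kidneys of diabetic mice given rFGF4 or vehicle. The set held 7 genes of the 55401 in the deposited table, namely *Gigyf1*, *Gigyf2*, *Eif4e2*, *Zfp598*, *Eif4e*, *Eif4ebp1* and *Eif4ebp2*. The set was chosen by the measured difference of *Gigyf2* between the treatments in these same libraries, so the differences of the 7 genes between the groups, and whether they pass a threshold, are given as a description and not as a test.

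Kidney poly(A) RNA of 8 mice was sequenced as 1 library per mouse, 4 treated with rFGF4 (mice 1, 2, 3 and 5) and 4 with vehicle (mice 2, 3, 4 and 5). rFGF4 is a recombinant human FGF4 altered to lose its mitogenic activity, and it was injected intraperitoneally every other day over several weeks, with PBS as the vehicle. The sample labels name *db*/*db* mice, which lack a working leptin receptor and become obese and diabetic, whereas the text of the study describes the sequenced animals as male mice made diabetic with streptozotocin, a toxin of the insulin-producing beta cells. Which model was sequenced was not tested here. The study describes the same model for both groups, and a kidney of a mouse without diabetes was not analysed here.

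Translation of most mRNAs starts when eIF4E binds the 5′ cap and recruits the scaffold eIF4G and the helicase eIF4A, together called eIF4F. The 4E-BPs, phosphorylated by the kinase mTORC1, occupy the eIF4G site on eIF4E while they are hypophosphorylated. GIGYF1 and GIGYF2 bind the cap-binding homologue 4EHP (encoded by *Eif4e2*), which does not recruit eIF4G, and are brought to mRNAs by proteins such as ZNF598 (*Zfp598*), a ubiquitin ligase that recognizes collided ribosomes, and tristetraprolin (*Zfp36*).

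*Gigyf2* and *Eif4e2*, the partners in the 4EHP complex, lie on the same strand of chromosome 1 in GENCODE M21 on GRCm38. *Eif4e2* (ENSMUSG00000026254) spans chr1:87213914-87240488 and *Gigyf2* (ENSMUSG00000048000) spans chr1:87326998-87450796, a distance of 86.5 kb with *Efhd1* between them. The other genes lie on other chromosomes: *Gigyf1* (ENSMUSG00000029714) at chr5:137518548-137527935, *Zfp598* (ENSMUSG00000041130) at chr17:24669687-24682016, *Eif4e* (ENSMUSG00000028156) at chr3:138526179-138559696, *Eif4ebp1* (ENSMUSG00000031490) at chr8:27260329-27276674 and, on the minus strand, *Eif4ebp2* (ENSMUSG00000020091) at chr10:61428491-61452661. The 250 bases before the annotated RefSeq start are shown for the neighbouring pair (GRCm38.p6, plus strand, chr1:87326748-87326997 and chr1:87213661-87213910), because both genes encode subunits of the same complex. Capitals mark the GC box GGGCGG, or its reverse complement, which Sp and Klf factors are known to bind.

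Gigyf2: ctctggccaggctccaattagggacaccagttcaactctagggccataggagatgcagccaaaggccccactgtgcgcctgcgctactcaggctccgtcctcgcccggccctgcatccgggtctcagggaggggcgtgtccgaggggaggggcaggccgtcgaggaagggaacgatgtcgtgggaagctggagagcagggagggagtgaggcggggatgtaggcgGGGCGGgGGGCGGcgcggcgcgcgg
Eif4e2: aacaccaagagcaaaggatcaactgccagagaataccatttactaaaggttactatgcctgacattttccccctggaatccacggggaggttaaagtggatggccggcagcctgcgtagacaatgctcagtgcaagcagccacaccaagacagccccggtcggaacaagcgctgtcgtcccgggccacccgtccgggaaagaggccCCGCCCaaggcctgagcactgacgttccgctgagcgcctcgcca

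The *Gigyf2* window of 300 bases, which adds 50 bases after the start, had a GC content of 68.3% and 27 CpG dinucleotides, against medians of 52.7% and 7 over 32851 mouse promoter windows. It held 2 GC boxes close to the start and 1 E-box (CACGTG). The first *Eif4e2* window had a GC content of 60% with 20 CpG, and it held 1 GC box and 1 ETS motif (CCGGAAG). The GC box also stood in the windows of *Zfp598*, with 3, and *Eif4ebp2*, with 2 and 1 ETS motif. Of the windows of *Eif4e*, the first held none of the motifs searched and the second held 2 E-boxes, and the window of *Gigyf1* had 3 CpG and held none of the motifs searched. Over all windows, and counting both strands, 35.7% held a GC box, 7.15% the E-box and 8.86% the ETS motif, and none of these motifs contains another. No window of these genes held the FOXO motif TGTTTAC (3.65% of all windows), the cAMP response element TGACGTCA (1.79%) or the ATF4 element TGATGCAA (0.895%). Windows were found for 6 of the 7 genes.

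Expression was deposited as FPKM, which counts sequenced fragments relative to exon length and to the mapped reads of the library. Raw counts were not analysed here, so how many fragments lie behind a value is unknown. All 7 genes were among the 15150 that reached an FPKM of 0.5 in 4 or more libraries. Ranked by their mean FPKM over the 8 mice, which compares levels per length, *Eif4ebp2* was the highest at 32.3, followed by *Zfp598* at 16.1, *Gigyf1* at 11.4 and *Eif4e2* at 7.55. Each step of this order was seen in 8 of 8 mice. The lower ranks, *Eif4ebp1* at 6.58, *Eif4e* at 5.94 and *Gigyf2* at 3.98, were less separated. *Eif4e2* exceeded *Eif4ebp1* in 6 of 8 mice, *Eif4ebp1* exceeded *Eif4e* in 4 of 8 (1 of 4 rFGF4-treated and 3 of 4 vehicle-treated mice) and *Eif4e* exceeded *Gigyf2* in 6 of 8, so the neighbours among these 4 genes did not differ beyond the spread between mice.

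The libraries were made from kidney tissue and not from sorted cells, so fewer cells of a type and less RNA per cell cannot be told apart, and 2 libraries stood apart in markers of cell types. In rFGF4-treated mouse 1, the summed FPKM of 5 proximal tubule markers was 243, against 701 to 1214 in the other 7 mice. The distal tubule marker *Slc12a3* was at 20.5 FPKM in this mouse against 55.7 or more in the others, and 3 macrophage markers summed to 83.2. In vehicle-treated mouse 5, the macrophage markers summed to 84.2, against at most 31.8 in the other 6 mice, and 4 lymph node markers to 82.2, against 3.46 to 18.3 in the others. The T and B lymphocyte markers, mostly *Igkc*, summed to 22346 FPKM in this mouse, against 22.5 to 2641 in the others. The sum of 5 red blood cell markers was 120 to 2657 FPKM with rFGF4, lowest in mouse 1, and 1139 to 4325 with vehicle, with log2 fold changes from -1.98 to -1.23, none of which passed the test. The sum of 4 podocyte markers was 59.9 to 86.8 with rFGF4 and 44.4 to 83.8 with vehicle. Of the markers listed for 10 cell types, 0 passed by limma the threshold of the study given below. The log2 fold changes of the 7 genes are given below with and without these mice, and the part of these cell types in them was not tested.

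*Gigyf2* had the widest separation between the groups. Its FPKM was 6.33, 5.64, 5.37 and 4.63 in rFGF4-treated mice 1, 2, 3 and 5 and 2.47, 1.82, 2.68 and 2.90 in vehicle-treated mice 2, 3, 4 and 5. All rFGF4-treated mice lay above all vehicle-treated mice. The means were 5.49 ± 0.704 (SD, n = 4) and 2.47 ± 0.466 (SD, n = 4), a ratio of 2.23. On the scale log2(FPKM + 1), which understates differences of genes with a low FPKM, the log2 fold change was 0.91 (SE 0.15) and remained between 0.81 and 0.98 when any 1 mouse was left out.

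The paralogue *Gigyf1* was expressed at a higher level than *Gigyf2* in every mouse and was nearly alike in the groups. It measured 15.7, 11.0, 10.2 and 11.2 FPKM in rFGF4-treated mice and 9.84, 10.6, 9.25 and 13.6 in vehicle-treated mice. The groups overlapped, with rFGF4-treated mouse 1 and vehicle-treated mouse 5 the highest. The means were 12.0 ± 2.48 and 10.8 ± 1.94 (SD, n = 4 each), with a log2 fold change of 0.14 (SE 0.17), which was 0.011 without rFGF4-treated mouse 1 and 0.24 without vehicle-treated mouse 5.

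*Eif4e2*, which encodes the cap binder 4EHP, measured 10.6, 8.80, 7.34 and 7.04 FPKM with rFGF4 and 5.78, 6.51, 6.26 and 8.07 with vehicle. Of the 4 rFGF4-treated mice, 2 lay above the highest vehicle-treated mouse, number 5. The means were 8.45 ± 1.63 and 6.65 ± 0.990 (SD, n = 4 each), with a log2 fold change of 0.30 (SE 0.16). *Zfp598*, the collision sensor that recruits the GIGYF proteins, had 21.5, 17.7, 17.0 and 15.0 FPKM with rFGF4 and 12.1, 15.1, 14.4 and 16.3 with vehicle. Here too the groups overlapped, since rFGF4-treated mouse 5 lay below vehicle-treated mice 3 and 5. The means were 17.8 ± 2.72 and 14.5 ± 1.77 (SD, n = 4 each), with a log2 fold change of 0.28 (SE 0.14).

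**Figure D1:**
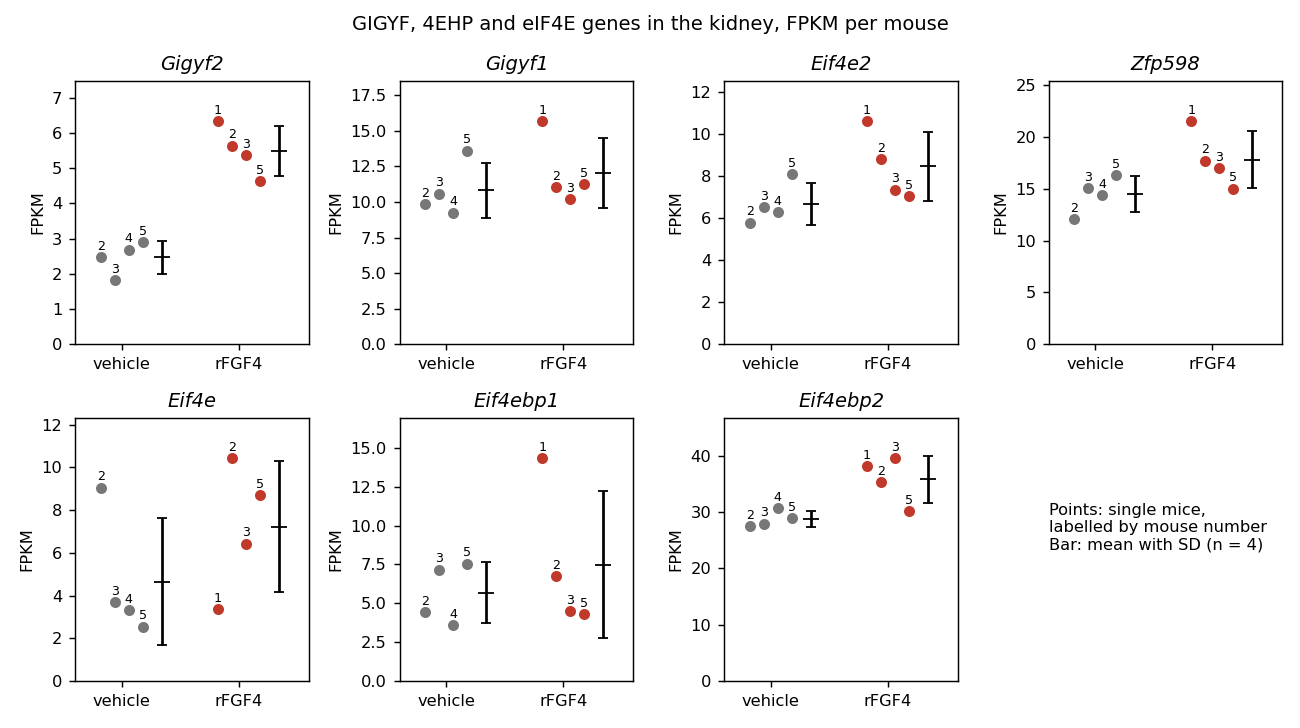
FPKM of the 7 genes in each mouse (y axis, starting at 0) by treatment, with points numbered by mouse and bars for the mean with SD (n = 4). The *Gigyf2* values of rFGF4-treated mice (4.63 to 6.33) all lie above those of vehicle-treated mice (1.82 to 2.90), whereas the groups overlap for the other 6 genes.

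*Eif4e*, the cap-binding subunit of eIF4F, varied more between mice than most genes, with a spread within groups at percentile 88.2 of the tested genes. It measured 3.35, 10.4, 6.43 and 8.70 FPKM with rFGF4 and 9.05, 3.69, 3.31 and 2.55 with vehicle. In each group, 1 mouse went against its group: rFGF4-treated mouse 1 lay among the vehicle-treated mice, and vehicle-treated mouse 2 among the rFGF4-treated mice. The means were 7.23 ± 3.07 and 4.65 ± 2.97 (SD, n = 4 each). The log2 fold change was 0.58 (SE 0.39) and ran from 0.39 to 0.90 with 1 mouse left out.

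The 4E-BP genes differed in how variable they were. *Eif4ebp2* was the steadier, with a spread at percentile 9.56, and measured 38.1, 35.3, 39.6 and 30.2 FPKM with rFGF4 and 27.5, 27.9, 30.7 and 28.9 with vehicle. Of the rFGF4-treated mice, 3 lay above every vehicle-treated mouse, and mouse 5 lay below vehicle-treated mouse 4. The means were 35.8 ± 4.14 and 28.8 ± 1.43 (SD, n = 4 each), with a log2 fold change of 0.30 (SE 0.12). *Eif4ebp1*, at percentile 86.2, measured 14.4, 6.74, 4.52 and 4.31 FPKM with rFGF4 and 4.42, 7.16, 3.58 and 7.55 with vehicle. Its higher mean with rFGF4, 7.48 ± 4.71 against 5.68 ± 1.97 (SD, n = 4 each), came from mouse 1. The log2 fold change of 0.25 (SE 0.37) became -0.081 without that mouse.

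The threshold of the study asks for an unadjusted p under 0.05 and a ratio between the groups of 1.5 or more, or 0.67 or less. It was applied here with limma, taking the fold change on the log2(FPKM + 1) scale and not as a ratio of mean FPKM. *Gigyf2* was the 1 of the 7 genes to pass it, where 1.52% of all tested genes passed in either direction, 1.09% with rFGF4 higher and 0.436% with rFGF4 lower. Nothing is read from this count, since the same values chose the set. By limma, 165 genes passed as higher and 66 as lower, and 575 genes passed without rFGF4-treated mouse 5 and 432 without vehicle-treated mouse 5. The groups did not overlap, with rFGF4 higher, for 1 of the 7 genes and for 2.66% of the tested genes (3.33% in either direction and 0.667% with rFGF4 lower). No gene reached an adjusted p of 0.05 (limma, Benjamini-Hochberg, smallest adjusted p 0.918), with 700 genes at an unadjusted p under 0.05, 4.62% of those tested. All 7 genes had a log2 fold change above 0, as did 67.1% of the tested genes, and their median of 0.30 stood beside a median of 0.09 over all tested genes.

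rFGF4-treated mouse 1 had the highest value of the 8 for 5 of the 7 genes, and this library also stood apart in general level. The median ratio of its FPKM to the mean library was 1.27, against 0.912 to 1.09 in the other 7, and mitochondrial transcripts made up 19.0% of its summed FPKM against 24.4% to 38.4%. It was also the mouse with the lowest proximal tubule marker sum. Without it, the log2 fold change was 0.85 for *Gigyf2*, 0.19 for both *Eif4e2* and *Zfp598*, 0.86 for *Eif4e* and 0.27 for *Eif4ebp2*, and without vehicle-treated mouse 5 these were 0.97, 0.38 and 0.33, 0.40 and 0.30, with 0.39 for *Eif4ebp1*. The values were also divided by this ratio in each library, which moved the median over all tested genes from 0.09 to -0.01 on the log2 scale and gave 93 higher and 84 lower genes past the threshold, 1.17% of those tested, with *Gigyf2* again the 1 of the 7. After this scaling, the log2 fold change was 0.81 for *Gigyf2*, 0.02 for *Gigyf1*, 0.18 for *Eif4e2*, 0.15 for *Zfp598*, 0.47 for *Eif4e*, 0.14 for *Eif4ebp1* and 0.18 for *Eif4ebp2*. All 7 remained above 0, where 47.5% of tested genes did, with a median of 0.18.

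Scaling narrowed the spread within groups for 5 of the 7 genes, *Gigyf1*, *Gigyf2*, *Eif4e2*, *Zfp598* and *Eif4ebp1*. It widened that of *Eif4ebp2*, from an SD of 4.14 to 4.88 with rFGF4 and from 1.43 to 2.93 with vehicle, and that of *Eif4e*, from 3.07 to 3.27 and from 2.97 to 3.39. Scaled *Gigyf2* was 4.97, 5.30, 5.58 and 4.92 with rFGF4 and 2.71, 1.92, 2.94 and 2.66 with vehicle, or 5.19 ± 0.305 against 2.56 ± 0.442 (SD, n = 4 each). Scaled *Eif4e2* was 8.32, 8.27, 7.62 and 7.49 with rFGF4 and 6.34, 6.88, 6.86 and 7.42 with vehicle, or 7.93 ± 0.431 against 6.87 ± 0.438 (SD, n = 4 each). Its groups no longer overlapped, by a narrow margin. Scaled *Zfp598* was 16.9, 16.6, 17.6 and 15.97 with rFGF4 and 13.3, 15.9, 15.8 and 15.0 with vehicle, and its groups met at their edge without overlap. Thus 3 of the 7 genes, *Gigyf2* among them, had groups without overlap after scaling, where 1.7% of the tested genes had rFGF4 higher in this way and 1.56% had it lower. Nothing is read from this count either, since *Gigyf2* chose the set and *Zfp598* is in it by 15.97 against 15.92 FPKM.

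**Figure D2:**
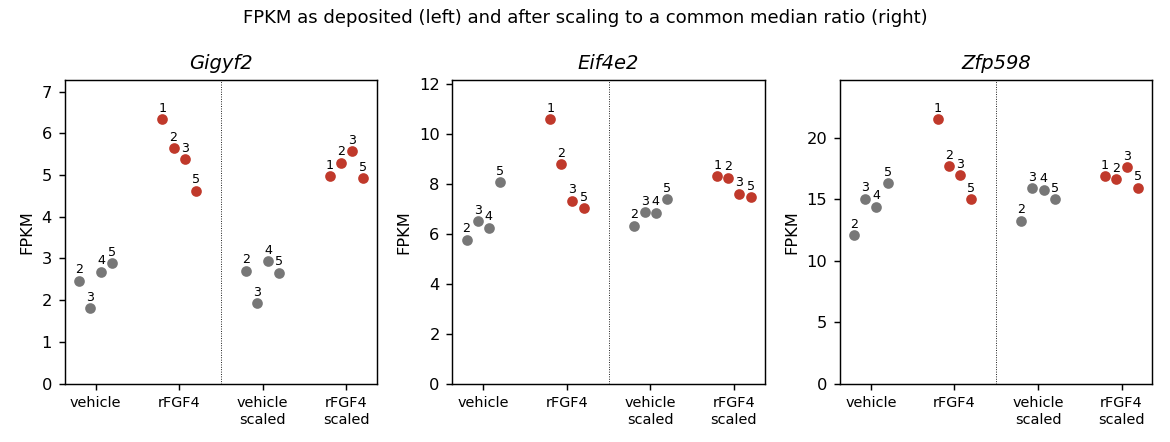
FPKM (y axis, starting at 0) of *Gigyf2*, *Eif4e2* and *Zfp598* per mouse as deposited (left of the dotted line) and after division by each library's median ratio (right), with points numbered by mouse. After scaling, the rFGF4-treated mice lie above the vehicle-treated mice for all 3 genes, by a wide gap for *Gigyf2* and a narrow one for *Eif4e2* and *Zfp598*.

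**Figure D3:**
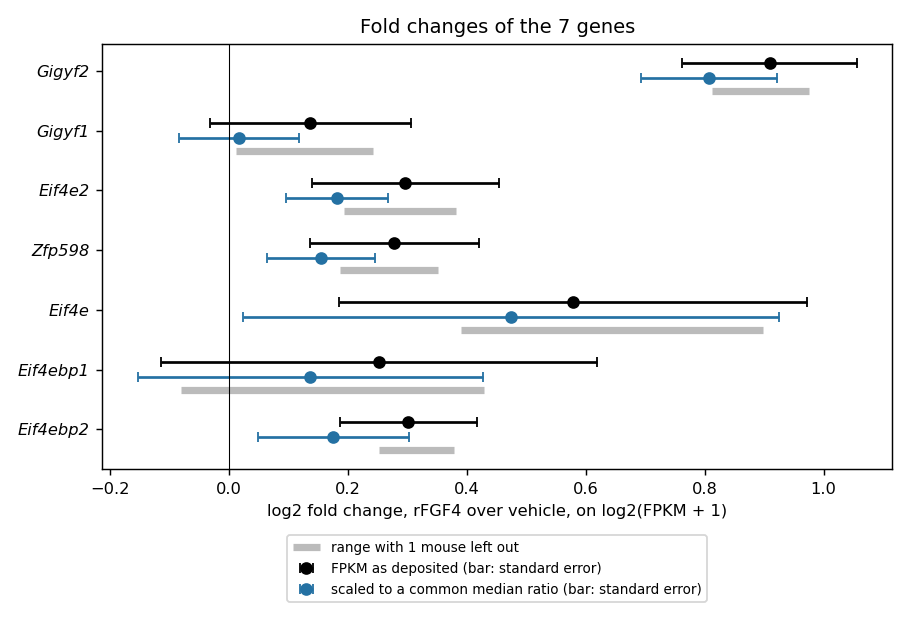
Log2 fold change (x axis, rFGF4 over vehicle on log2(FPKM + 1)) of each gene as deposited (black) and scaled (blue), with bars for the standard error and a grey bar for the range with 1 mouse left out. *Gigyf2* lies at 0.91 and 0.81, and *Eif4ebp1* is the gene whose grey range crosses 0.

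Ratios between these genes within a library do not depend on how the library was scaled. *Gigyf2* relative to *Gigyf1* was 0.404, 0.511, 0.528 and 0.412 in rFGF4-treated mice and 0.251, 0.172, 0.290 and 0.213 in vehicle-treated mice. The mean ratio was 0.464 ± 0.0650 against 0.231 ± 0.0508 (SD, n = 4 each), without overlap, so that *Gigyf2* made up more of the GIGYF transcripts in every rFGF4-treated mouse while *Gigyf1* remained the more abundant. *Gigyf2* relative to *Eif4e2* was 0.598, 0.641, 0.732 and 0.657 with rFGF4 and 0.427, 0.280, 0.429 and 0.359 with vehicle, again without overlap. *Zfp598* relative to *Gigyf2* was 3.398, 3.14, 3.16 and 3.24 with rFGF4 and 4.90, 8.28, 5.37 and 5.63 with vehicle. Its mean was 3.24 ± 0.117 against 6.05 ± 1.52 (SD, n = 4 each), with little spread among the rFGF4-treated mice. All these ratios contain *Gigyf2*, whose difference chose the set.

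The balance between the cap binders showed no such separation. *Eif4e2* relative to *Eif4e* was 3.16, 0.842, 1.14 and 0.810 with rFGF4 and 0.639, 1.76, 1.89 and 3.17 with vehicle, with overlapping groups. *Eif4ebp1* relative to *Eif4ebp2* was 0.376, 0.191, 0.114 and 0.143 with rFGF4 and 0.161, 0.256, 0.116 and 0.261 with vehicle, and *Eif4ebp2* was the more abundant 4E-BP in every mouse.

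**Figure D4:**
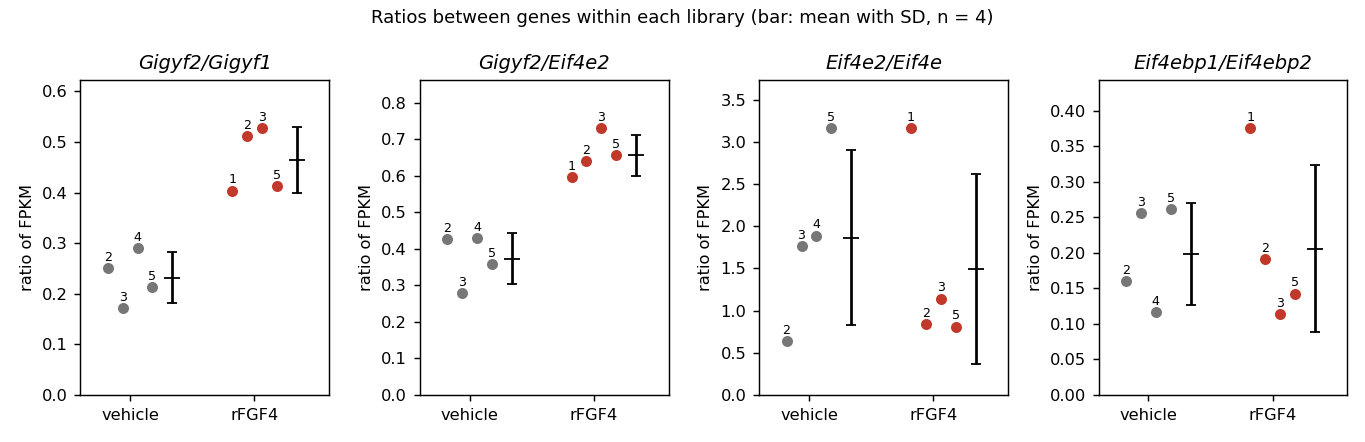
Ratio of FPKM between gene pairs in each mouse (y axis, starting at 0), with points numbered by mouse and bars for the mean with SD (n = 4). *Gigyf2* relative to *Gigyf1* and to *Eif4e2* is higher in every rFGF4-treated mouse, while *Eif4e2* relative to *Eif4e* and *Eif4ebp1* relative to *Eif4ebp2* overlap between the groups.

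Across the 8 mice, levels of some of these genes varied together and others in opposite directions. These correlations describe log2(FPKM + 1) in 8 libraries that share their scaling, and no test was made. As deposited, *Eif4e2* and *Zfp598* had the highest Pearson's r of the 21 pairs, 0.95 (Spearman's rho 0.95, and r 0.92 with the group means removed), followed by *Gigyf1* with *Eif4ebp1* at 0.89. After scaling, these were 0.76 and 0.60, and the highest was *Gigyf2* with *Eif4e2* at 0.77 (0.75 as deposited and 0.64 with the group means removed). *Gigyf2* and *Eif4ebp2* had an r of 0.87, which contains the difference between the groups, and 0.58 with the group means removed. *Gigyf1* and *Eif4e2* went from 0.85 to 0.28 with scaling. *Gigyf1* and *Gigyf2* had an r of 0.44, which was -0.03 after scaling. *Gigyf1* and *Eif4ebp2* went from 0.30 to -0.64 with scaling. *Eif4e* had a negative r with each of the other genes once the group means were removed, from -0.38 with *Gigyf2* to -0.86 with *Zfp598*. As deposited, these were 0.33 and -0.28.

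Over the same 8 libraries, the tested genes most like *Gigyf2* were *Wasf1* (r 0.988), which encodes a WAVE complex subunit, *Ulk2* (0.984), an autophagy kinase, *Icmt* (0.982), which methylates prenylated proteins, *Elac2* (0.981), a tRNA 3′ processing enzyme, and *Ptpn4* (0.974), a tyrosine phosphatase. With the group means removed, the nearest were *Rpl30-ps10* (0.998), *Nedd4* (0.997), *Gm12191* (0.987), *Atp6v1c1* (0.983) and *Htt* (0.982), none of which was among the first 5. The first ranking therefore contains the difference between the groups.

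The genes beside *Gigyf2* were examined because neighbours can share reads. *Efhd1*, between *Eif4e2* and *Gigyf2*, had an FPKM of 48.2 ± 9.82 with rFGF4 and 54.5 ± 11.6 with vehicle (SD, n = 4 each) and a log2 fold change of -0.17 (SE 0.20), which did not pass the threshold (it was chosen after its values were seen). *Kcnj13*, a potassium channel gene on the opposite strand within *Gigyf2*, shares 623 bases, 4.38% of the annotated *Gigyf2* exon sequence. Whether the counting used strand is not given in the sources used here, so reads of this stretch cannot be assigned to either gene. *Kcnj13* had an FPKM of 0.110 to 0.723 with rFGF4 and 0.246 to 0.682 with vehicle, below that of *Gigyf2* in every mouse and with overlapping groups, and it was not tested because of its low values. Of the other genes inside the 7, *Gm22549* and *Gm23504* lie in *Gigyf2* introns, *Gm48086* in an *Eif4ebp2* intron, *Epo* spans *Gigyf1* without a shared exon base, and *Mir1956* shares 61 exon bases with *Eif4e*.

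The genes around the complex were read in 6 lists with 127 tested genes of 130. Past the study's threshold were 3 genes, all higher with rFGF4, which is 2.36% of the tested list genes beside 1.52% of all tested genes. None reached an adjusted p of 0.05 (limma, Benjamini-Hochberg, adjusted p 0.918 or more). An unadjusted p under 0.05 (limma) was seen for 11 of the 127, beside 4.62% of all tested genes.

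Among 19 tested eIF4F and cap-binding genes, 1 was higher past the threshold and 0 lower, beside 1.09% and 0.436% of all tested genes. A positive log2 fold change was seen for 18 (94.7%, beside 67.1% of all tested genes) and the median was 0.26, beside 0.09 over all tested genes. An unadjusted p under 0.05 (limma) was seen for 4, beside 4.62%. The groups did not overlap, with rFGF4 higher, for 4, beside 2.66%, and for 2 after scaling, beside 1.7%. The gene past the threshold was *Paip2*, an inhibitor of poly(A)-binding protein, at 22.2, 16.3, 27.1 and 18.5 FPKM with rFGF4 and 11.8, 13.0, 14.0 and 13.4 with vehicle, without overlap. Its log2 fold change was 0.63 (SE 0.16), and 0.50 after scaling, which falls short of the fold threshold. The most abundant genes of the list were *Eif4b*, a helicase cofactor, at 75.7 ± 6.62 against 55.4 ± 9.29 FPKM, and *Eif4g2*, an eIF4G homologue, at 53.9 ± 6.50 against 43.3 ± 3.95 (SD, n = 4 each). Neither reached the fold threshold, with log2 fold changes of 0.46 (SE 0.15) and 0.31 (SE 0.13). After scaling, 15 of the list were positive (78.9%, beside 47.5%) with a median of 0.14. The relatives *Eif4ebp3* and *Eif4e3*, named after their values were seen, had log2 fold changes of 0.05 and 0.12 with overlapping groups, and the germline gene *Eif4e1b*, named likewise, was listed at the floor of the table in all 8 libraries.

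Of the 33 genes for partners and effectors of GIGYF and 4EHP, which include the CCR4-NOT deadenylase, decapping factors and microRNA effectors, 0 passed the threshold by limma, 2 had an unadjusted p under 0.05 and 27 had a positive log2 fold change (81.8%, beside 67.1% of all tested genes, median 0.15). After scaling these were 22 (66.7%, beside 47.5%), with a median of 0.055. Without rFGF4-treated mouse 5, 5 of the 33 passed, where 3.8% of all tested genes did. The most abundant, *Zfp36l1*, which binds AU-rich elements, measured 64.8 ± 35.1 FPKM with rFGF4 and 35.4 ± 18.6 with vehicle (SD, n = 4 each), with a log2 fold change of 0.81 (SE 0.45). *Tob1*, which recruits the deadenylase, measured 29.2 ± 7.32 and 26.9 ± 2.42 (log2 fold change 0.08, SE 0.20). *Zfp36*, chosen after its values were seen because tristetraprolin binds GIGYF2, ranged from 6.83 to 43.0 FPKM with rFGF4 and from 5.56 to 15.0 with vehicle, with a log2 fold change of 0.80 (SE 0.53).

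For ribosome collision and quality control, 0 of 26 genes passed the threshold by limma, 1 had an unadjusted p under 0.05 and 20 had a positive log2 fold change (76.9%, beside 67.1% of all tested genes, median 0.14). After scaling these were 14 (53.8%, beside 47.5%), with a median of 0.048. *Rack1*, the ribosomal scaffold at which ZNF598 acts, measured 78.2 ± 21.6 against 67.3 ± 9.96 FPKM, and *Edf1*, which binds collided ribosomes, 66.9 ± 8.83 against 76.2 ± 16.1 (SD, n = 4 each). Their differences were smaller than the SD of at least 1 group.

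In the mTORC1 branch that acts on the 4E-BPs, 1 of 25 genes was higher past the threshold and 0 lower. These counts stood beside 1.09% and 0.436% of all tested genes. An unadjusted p under 0.05 (limma) was seen for 2, beside 4.62%. A positive log2 fold change was seen for 17 as deposited (68%, beside 67.1% of all tested genes, median 0.11) and for 11 after scaling (44%, beside 47.5%, median -0.008). *Lamtor3*, a Ragulator subunit that tethers mTORC1 signaling to lysosomes, measured 7.29 ± 1.22 against 4.53 ± 0.814 FPKM (SD, n = 4 each; log2 fold change 0.59, SE 0.16, and 0.48 after scaling, short of the fold threshold). *Rps6*, a ribosomal protein downstream of the pathway, and the Ragulator gene *Lamtor5* were the most abundant and had log2 fold changes of 0.13 (SE 0.22) and -0.16 (SE 0.11).

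Of 8 GRB adapter, insulin and IGF1 receptor genes, through whose adapters the GIGYF proteins were first described, 1 was higher past the threshold and 0 lower. These counts stood beside 1.09% and 0.436% of all tested genes. A positive log2 fold change was seen for 6 as deposited (75%, beside 67.1%, median 0.28 beside 0.09) and for 6 after scaling (75%, beside 47.5%). An unadjusted p under 0.05 (limma) was seen for 2, beside 4.62%. The insulin receptor *Insr* measured 3.87, 1.496, 1.04 and 4.45 FPKM with rFGF4 and 0.620, 0.506, 0.778 and 1.01 with vehicle. The groups came close to overlapping at rFGF4-treated mouse 3 and vehicle-treated mouse 5, the log2 fold change was 0.99 (SE 0.32), and *Insr* was the 1 list gene to pass after scaling as well, when the median of the list was 0.17. *Grb7* and *Igf1r*, the most abundant of this list, had log2 fold changes of 0.20 (SE 0.14) and 0.31 (SE 0.13). Among 16 tested ATF4 target genes, read out because collided ribosomes also activate the integrated stress response, 0 passed the threshold by limma and 0 had an unadjusted p under 0.05. A positive log2 fold change was seen for 14 of them both as deposited (87.5%, beside 67.1% of all tested genes, median 0.28) and after scaling (beside 47.5%, median 0.17). The most abundant, *Shmt2* and *Slc3a2*, were the 2 others, with log2 fold changes of -0.34 (SE 0.30) and -0.02 (SE 0.13).

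**Figure D5:**
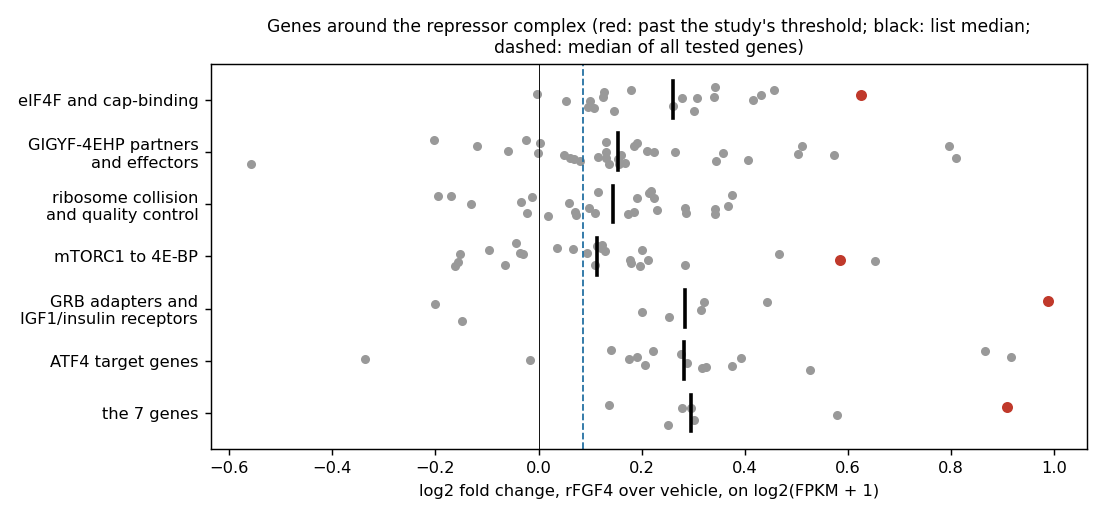
Log2 fold change (x axis, rFGF4 over vehicle on log2(FPKM + 1)) of each tested gene of the 6 lists and of the 7 genes, with a black bar for each median, a dashed line for the median of all tested genes (0.09), and red points for genes past the study's threshold. Apart from *Gigyf2*, the red points are *Paip2*, *Lamtor3* and *Insr*, and every median lies to the right of the dashed line.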

How the data were processed

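Kidney mRNA of 8 mice was sequenced as paired-end libraries, and samples were grouped by the treatment in the labels. The authors mapped the reads, assembled transcripts and deposited the FPKM of each gene per library, together with 6 columns of their own comparison (fold change, its log2, p, q, direction and significance), which were not used. The submitters' processing notes name HISAT2 2.0, Bowtie 0.12.2, StringTie 1.3.0 and mm8, with no role given. The deposited table has no coordinates. Positions came from GENCODE M21 on GRCm38, which holds 99.5% of the identifiers, and promoters from RefSeq. A value of 0.0001 stands as a floor. Without counts, depth and counting error are unknown. Relative to vehicle-treated mouse 2, depth estimated from steps between low values was 0.905 to 1.12.

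The 15150 genes that reached 0.5 FPKM in 4 libraries entered the comparison as log2(FPKM + 1), fitted with limma 3.58.1 (R 4.3.3) under a mean-variance trend, without covariates and with Benjamini-Hochberg adjustment over all of them. The count-based test of the study's methods could not be used on FPKM. The procedure was tested on simulated data. The 7 genes, the lists and the rule for naming genes were chosen with earlier results of these data known. Named were the 7 genes, list genes past the threshold, the 2 most abundant genes of each list, the 5 genes most like *Gigyf2* by each measure, genes overlapping the 7, and markers of cell types. Genes named outside this rule are marked in the text. Percentiles of spread refer to the SD within groups on the log2 scale. The mice share 3 numbers between groups. Deviations of same-numbered mice from their group means did not correlate positively, so the numbers were not taken as pairs. Alternatives were a pseudocount of 0.1, other filters and thresholds, array weights, scaling by the median ratio, a replicate block and leaving out each mouse. Figures were drawn with matplotlib 3.10.9.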

Additional observations from a re-analysis of the deposited data

How the results depend on the processing

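The log2 fold change of *Gigyf2*, whose value in these libraries chose the 7 genes, was 1.13 with a pseudocount of 0.1, and counts among the 7 describe the same values and are no independent support. Of the genes tested, 231 passed the threshold as reported, 348 with a pseudocount of 0.1, 490 with array weights, 54 at a fold change of at least 2 and 187 to 575 with 1 mouse left out. None passed at an adjusted p of 0.05 (0 genes by limma, with 700 at an unadjusted p under 0.05), which was also true of the 7 genes and each list, and on the log2(FPKM + 1) scale, which understates the ratios of genes with a low FPKM, none of the 7 genes and no list gene passed at a fold change of at least 2. Leaving out vehicle-treated mouse 2, 4 or 5, or applying no filter, gave 1 gene each at an adjusted p of 0.05. Among the 7 genes, 1 to 2 passed with 1 mouse left out, *Eif4e* joining without rFGF4-treated mouse 1 or vehicle-treated mouse 2. The number of list genes past the threshold ranged from 0 to 2 for eIF4F, 0 to 5 for GIGYF and 4EHP partners, 0 to 2 for mTORC1, 1 to 2 for GRB and insulin receptor genes and 0 to 2 for ATF4 targets. With array weights it was 4 for the partners and 2 for ATF4 targets. After scaling it was 0 for eIF4F and 0 for mTORC1. The log2 fold change of *Eif4ebp1* ran from -0.081 without rFGF4-treated mouse 1, where its sign turned, to 0.43 without mouse 5.

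A replicate block for the 3 shared mouse numbers gave 182 higher and 80 lower genes, and under it the log2 fold changes of *Gigyf1* and *Eif4ebp1* were -0.053 and -0.25. Deviations of same-numbered mice correlated at -0.23, -0.16 and -0.39, so the numbers were not taken as pairs. Such correlations cannot exclude a pairing. rFGF4-treated mouse 1 and vehicle-treated mouse 4 have no same-numbered mouse in the other group. Under the block, these mice therefore do not enter the treatment difference. Beyond this, the shifts were not tested. Alternatives that need counts were not run.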
